A study of Mus musculus with 6 samples.

Results

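The genes described here are S100a10, which encodes the small protein p11, and the genes of 3 of its binding partners, Anxa2 (annexin A2), Ahnak and Hltf (also named SMARCA3). They are 4 of the 18193 genes named on the array. They were measured by every probe set of the array table whose platform annotation names exactly 1 gene, equal to one of these symbols, which gave 13 of 45037 probe sets: 3 for S100a10, 3 for Anxa2, 4 for Ahnak and 3 for Hltf. The RNA came from cortex of mice of the Glt25d2 bacTRAP line DU9, crossed from FVB onto C57BL/6 for 3 to 5 generations. In a bacTRAP line a gene's regulatory region, here that of Glt25d2 (now Colgalt2), drives a tagged ribosomal protein in chosen cells, in this line pyramidal cells of cortical layer 5, and RNA on the tagged ribosomes is purified (translating ribosome affinity purification, TRAP). All 6 arrays came from such transgenic mice: 3 from mice that drank fluoxetine, a serotonin reuptake inhibitor, at 0.167 mg/ml in 1% saccharine, and 3 from mice that drank 1% saccharine alone, over 15 to 18 days. The labels give neither the age of the mice nor how many went into a purification, and the tag is read out from 1 transgenic line. Because tagged RNA is measured in bulk, fewer labelled cells and less RNA per cell cannot be told apart. The groups are named by their titles, fluoxetine-titled and vehicle-titled, since the short description of every sample names the opposite treatment from its title, source and treatment fields. With the description in place of the title, each signed difference would change sign.

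p11 is a member of the S100 family that, unlike most of that family, has lost calcium binding. A p11 dimer joins a pair of annexin A2 molecules into a tetramer at membranes, and this complex carries receptors and channels to the cell surface, among them the serotonin receptors 5-HT1B and 5-HT4. Ahnak is a giant scaffold protein that binds the p11 and annexin A2 complex and calcium channel subunits, and Hltf is a DNA translocase of the SWI/SNF type that the same complex can bind in the nucleus. In mouse brain p11 has been tied to depression-like behaviour and to the response to antidepressants, and in cortex it is found in a set of layer 5 pyramidal cells.

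Markers of the labelled cell type were read first. All 6 arrays held purified RNA, so enrichment over whole cortex could not be tested. Colgalt2 had intensities of 986.1, 709.2 and 718.7 on the fluoxetine-titled and 890.8, 828.1 and 918.1 on the vehicle-titled arrays, and 9 of 10 listed markers of layer 5 subcortical projection neurons passed an intensity filter of 50 on the group means; the other one, Etv1, was not analysed here. Markers of other cells were present as well, with 10 of 10 astrocyte, 7 of 8 oligodendrocyte and 7 of 8 microglial genes above the filter. So were 3 of 8 endothelial, 4 of 7 mural, 4 of 8 fibroblast and 8 of 8 interneuron genes. Over the whole array 10830 of 18193 genes passed, so passing does not set the labelled cells apart. Vehicle array 3 stood apart in most lists of other cells, given as each list's median log2 deviation from the mean of the 6 arrays. It lay at -0.69 for astrocytes, -0.46 for oligodendrocytes, -1.01 for microglia, -0.54 for fibroblasts and -0.46 for interneurons. It was the lowest array in each of these lists and, at -0.42, for mural cells. For endothelial cells it stood at 0.18, and vehicle array 2 was the lowest at -0.61. Differences of the 4 genes without vehicle array 3 are therefore given beside the results.

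The deposited value of a probe set is a GCRMA intensity, which has no common scale between probe sets, so levels are compared only between arrays. Testing was limited to the 19073 probe sets whose mean was 50 or more in either group. Of the 13 probe sets of the 4 genes, 4 were kept by this filter, 2 of S100a10, 1 of Anxa2 and 1 of Hltf, and no probe set of Ahnak was. Values of the other 9 come from a fit without the filter.

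The promoters of the partners, where their transcription is in part set, are shown beside values that did not follow a single course over the arrays. RefSeq promoter entries (build GRCm38.p6) were matched by symbol for 3 of the 4 genes, Anxa2, Ahnak and Hltf. The 100 bases before the start are given 5′ to 3′ on the + strand, at chr9:69453583-69453682, chr19:8989184-8989283 and, for the first of the 2 Hltf starts, chr3:20057711-20057810. Capitals mark a TATA box (TATAAA), GC boxes (GGGCGG) and CCAAT boxes (CCAAT), each searched on both strands.
Anxa2: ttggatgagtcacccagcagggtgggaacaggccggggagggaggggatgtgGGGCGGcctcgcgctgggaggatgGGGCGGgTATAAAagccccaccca
Ahnak: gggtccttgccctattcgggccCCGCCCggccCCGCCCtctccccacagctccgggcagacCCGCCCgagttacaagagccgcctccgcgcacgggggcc
Hltf: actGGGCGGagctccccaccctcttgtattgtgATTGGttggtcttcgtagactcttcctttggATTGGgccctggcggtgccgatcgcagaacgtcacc
The Anxa2 window held 1 TATA box, which begins 17 bases before the start, and 2 GC boxes. That of Ahnak held 3 GC boxes, and that of Hltf 1 GC box and 2 CCAAT boxes. Of 32851 promoter entries, 5.56% held the TATA box in the same 100 bases, 24.7% the GC box and 18.9% the CCAAT box. Such matches describe letters and not bound factors, and the arrays say nothing on whether they are used.

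The comparison of the treatments asks whether chronic fluoxetine alters the translated messages of p11 and its partners in these cells. No difference passed. Of the 4 kept probe sets 0 were called at an adjusted p of 0.05 in limma (lmFit and eBayes, Benjamini-Hochberg over all probe sets tested), against 0% of all 19073, and 0 had an unadjusted p under 0.05, against 0.634%. With the replicate number of the titles as a block, the adjusted count was again 0 in limma, and 0 of the 4 had an unadjusted p under 0.05, against 4.02% of all. The 95% confidence intervals of the 4 kept probe sets lay within a 2-fold difference in either direction, with and without the block. So did those of the other 9, but these lie under the filter. Signal near background limits what such intervals say about the message, and for Ahnak no other reading is at hand. None of the 4 kept probe sets had fluoxetine-titled values that all lay below the vehicle-titled ones, as 2.01% of kept probe sets did.

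p11 itself was measured strongly and differed little. Its probe set of highest mean, 1456642_x_at, had intensities of 3687, 3115 and 3930 on fluoxetine arrays 1, 2 and 3 and of 3914, 3302 and 4077 on vehicle arrays 1, 2 and 3. The groups overlapped, and in both of them the array numbered 2 was the lowest and the array numbered 3 the highest. The means were 3577 ± 418.3 (SD, n = 3) and 3764 ± 408.6 (n = 3), which put the fluoxetine-titled level at 95.0% of the vehicle-titled one. The log2 difference was -0.074 ± 0.15 (SE), with a 95% interval from -0.43 to 0.28, that is from 0.740-fold to 1.22-fold (limma adjusted p = 1). With the block the interval ran from -0.31 to 0.16 (limma adjusted p = 0.993). The fluoxetine-titled array was the lower one in each of the 3 pairs of equal number, by -0.086, -0.084 and -0.053 on the log2 scale, a pattern shared by 13.4% of kept probe sets. An exact two-sided permutation test of the mean log2 difference over the 6 arrays gave p = 0.600 (0.800 after Benjamini-Hochberg adjustment over the 4 genes). With 3 arrays against 3 it cannot go below 0.1. That test, used for each of the 4 genes, shuffled all 6 arrays and did not use the pairs. Spread between replicate numbers, 92.8% of the sum of squares for this probe set, therefore enters it.

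The suffix _x_at marks a probe set in which some probes can match other sequences, so the second p11 probe set, 1416762_at, is a separate reading. It had 814.0, 558.7 and 689.2 on the fluoxetine-titled and 775.8, 551.4 and 809.8 on the vehicle-titled arrays. Here too the arrays numbered 2 were the lowest of each group, and the groups overlapped. The log2 difference was -0.048 ± 0.21 with an interval from -0.54 to 0.44 (limma adjusted p = 1). Unlike the first probe set it had no common direction over the pairs, which gave 0.069, 0.019 and -0.23. The third, 1439348_at, lay between 6.66 and 8.29 on all arrays, far under the filter, with a log2 difference of 0.032. Without fluoxetine array 2 the sign of the first 2 probe sets turned, to 0.022 and 0.093. That of the second also turned without vehicle array 1 (0.024), vehicle array 3 (0.055) or pair 3 (0.044), while the first was at -0.014 without vehicle array 3.

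**Figure D1:**
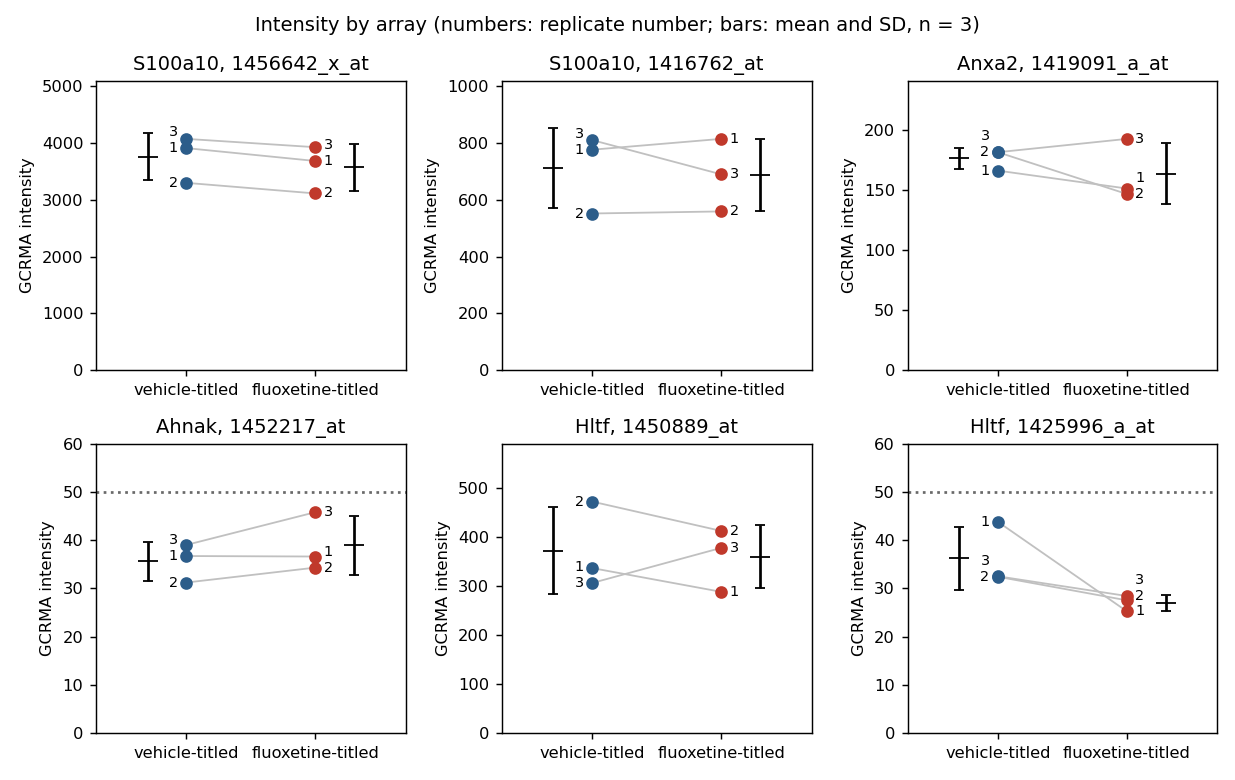
GCRMA intensity (vertical axes, from 0) of 6 probe sets by treatment, with a point per array marked by its replicate number, grey lines joining arrays of equal number, and bars for mean and SD (n = 3); the dotted line is the filter of 50. The groups overlap in every panel except that of Hltf 1425996_a_at, where the fluoxetine-titled arrays lie between 25.2 and 28.4 and the vehicle-titled ones between 32.4 and 43.8.

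Annexin A2, the calcium- and phospholipid-binding partner that p11 joins into the tetramer, was measured by 1 probe set above the filter. Probe set 1419091_a_at had intensities of 151.0, 146.4 and 192.3 on the fluoxetine-titled and 165.9, 181.2 and 181.2 on the vehicle-titled arrays. Fluoxetine array 3 was the highest of all 6 and fluoxetine array 2 the lowest, so the groups overlapped. The spread was wider among the fluoxetine-titled arrays, with means of 163.2 ± 25.3 and 176.1 ± 8.82 (SD, n = 3 each). The log2 difference was -0.12 ± 0.15, with an interval from -0.47 to 0.23 (limma adjusted p = 1; exact permutation p = 0.400, adjusted 0.800). The pairs gave -0.14, -0.31 and 0.086, and without vehicle array 3 the difference was -0.098. The other 2 probe sets of Anxa2 lay below 20 on every array, between 17.1 and 19.8 for 1437692_x_at and between 5.95 and 7.61 for 1437691_at. Their log2 differences were -0.0092 ± 0.084 and 0.016 ± 0.11.

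Ahnak, the scaffold that binds the complex of p11 and annexin A2, did not reach an intensity of 50 on any array. Its brightest probe set, 1452217_at, had 36.6, 34.3 and 45.8 on the fluoxetine-titled and 36.7, 31.2 and 39.0 on the vehicle-titled arrays. In both groups the array numbered 3 was the highest and the array numbered 2 the lowest, with overlap between the groups. The log2 difference was 0.12 ± 0.14, with an interval from -0.24 to 0.48 (limma adjusted p = 1 in the fit without a filter; exact permutation p = 0.600, adjusted 0.800). Without fluoxetine array 3 the difference was -0.0025, without vehicle array 2 it was 0.028, and without vehicle array 3 it was 0.19. The 3 other probe sets had negative differences of -0.063, -0.26 and -0.032. Of these, 1428057_a_at had 10.5, 12.0 and 13.8 against 10.1, 18.8 and 15.6, with vehicle array 2 the highest. At these intensities no direction can be given for Ahnak.

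Hltf, the DNA translocase, gave 2 probe sets with unlike pictures. The brighter one, 1450889_at, had intensities of 287.9, 412.2 and 377.6 on the fluoxetine-titled and 336.4, 472.1 and 305.9 on the vehicle-titled arrays. The arrays numbered 2 were the highest in each group, the reverse of p11, and the groups overlapped. The means were 359.2 ± 64.1 and 371.5 ± 88.5 (SD, n = 3 each), and the log2 difference was -0.039 ± 0.22, with an interval from -0.55 to 0.47 (limma adjusted p = 1; exact permutation p = 0.900, adjusted 0.900). In pairs 1, 2 and 3 it was -0.22, -0.20 and 0.30. Its sign turned without fluoxetine array 1 (0.11), vehicle array 2 (0.15), pair 1 (0.054) or pair 2 (0.040), and it was -0.17 without vehicle array 3.

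The second Hltf probe set, 1425996_a_at, was the single one of the 13 whose fluoxetine-titled values all lay below the vehicle-titled ones. It had 25.2, 27.5 and 28.4 on the fluoxetine-titled and 43.8, 32.4 and 32.5 on the vehicle-titled arrays, and vehicle array 1 stood highest. All of these lie under the filter, where 9.07% of the probe sets not kept had fluoxetine-titled values that all lay below the vehicle-titled ones. The share of probe sets without overlap in either direction, which would be larger, is not given here. The log2 difference was -0.41 ± 0.14, with an interval from -0.76 to -0.061 (limma unadjusted p = 0.0286 and adjusted p = 1 without a filter), and with the block the interval ran from -0.82 to 0.0021. The pairs gave -0.80, -0.24 and -0.19, and the difference was -0.22 without pair 1 and -0.48 without vehicle array 3. The third probe set, 1451901_at, whose listed source accession is the same as that of the second, lay between 5.08 and 5.75. Its log2 difference was -0.055 ± 0.064, and it too was lower in all 3 pairs, by -0.076, -0.064 and -0.026.

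**Figure D2:**
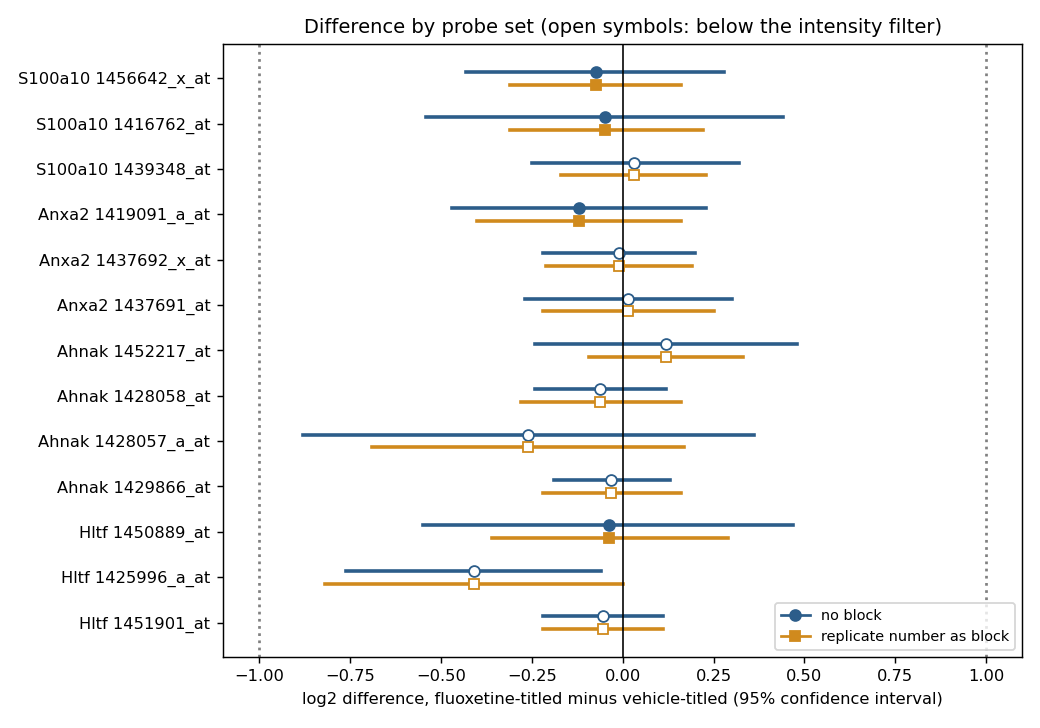
Log2 difference, fluoxetine-titled minus vehicle-titled (horizontal axis), of all 13 probe sets with 95% confidence intervals from limma, without a block (circles) and with the replicate number as a block (squares); open symbols are below the filter and dotted lines mark a 2-fold difference. Every interval contains 0 except that of Hltf 1425996_a_at without the block, from -0.76 to -0.061.

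Arrays of equal number resembled each other more than arrays of equal treatment for p11. For its first probe set the replicate number took up 92.8% of the sum of squares over the 6 log2 values and the treatment 6.91%. These shares were 51.7% and 17.1% for Anxa2, 79.0% and 12.7% for Ahnak and 75.1% and 0.622% for Hltf, beside medians of 69.9% and 5.35% over all kept probe sets. p11 and Ahnak were lowest on the arrays numbered 2, Hltf was highest there, and Anxa2 was low on fluoxetine array 2 but not on vehicle array 2. The highest and the lowest array differed 1.31-fold for p11, 1.31-fold for Anxa2, 1.47-fold for Ahnak and 1.64-fold for Hltf. The SD over the 6 log2 values was 0.16 for p11, 0.16 for Anxa2 and 0.27 for Hltf, and 28.0%, 29.1% and 67.8% of kept probe sets had a smaller one.

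**Figure D3:**
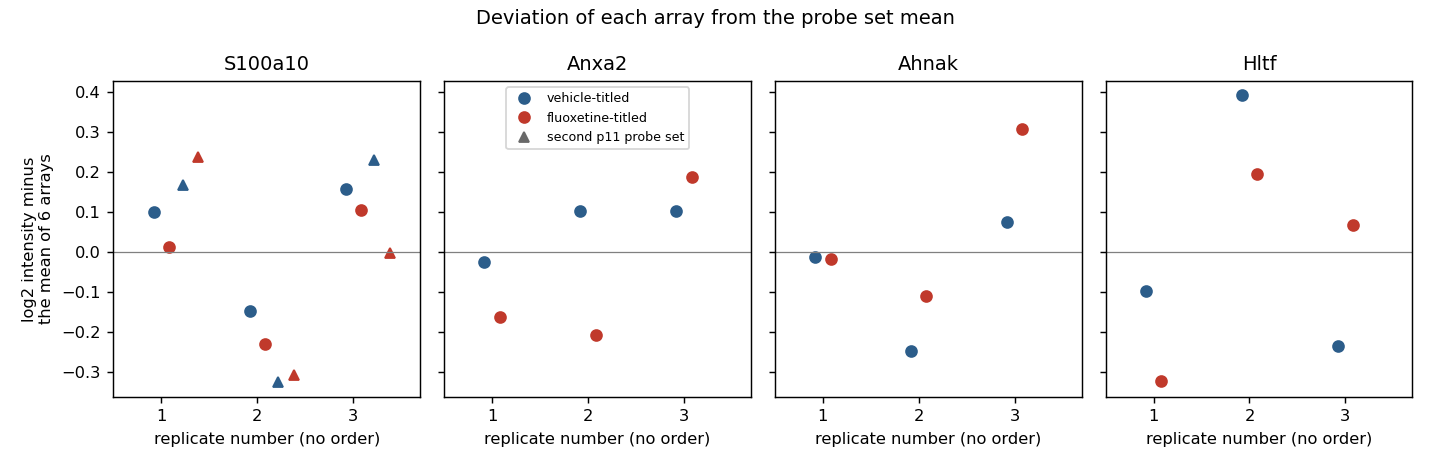
Log2 intensity of each array minus the mean of the 6 arrays (vertical axis) for the probe set of highest mean of each gene, by replicate number, with triangles for the second p11 probe set, 1416762_at. Both p11 probe sets lie lowest on the arrays numbered 2 (3115 and 3302 for the first), where Hltf lies highest (412.2 and 472.1).

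The genes whose course over the 6 arrays was most like that of each of the 4 were found by Pearson's r of log2 intensity, with 1 probe set for each of 10830 genes. With so many genes and 6 arrays that share their pair structure, values near 1 are common, and r is a description. For p11 they were the death-effector domain gene Dedd2 (r = 0.993), the scaffold gene Mpp3 (0.992) and Cntd1 (0.991), and 102 genes had an r above 0.9. Cntd1 was read by an _x_at probe set that lay between 27932 and 29329 on all arrays, so its r rests on very small differences. Dedd2 had 139.0, 109.8 and 146.4 on the fluoxetine-titled and 145.5, 117.8 and 160.5 on the vehicle-titled arrays. For Anxa2 they were the ubiquitin ligase gene Lnx2 (0.990), Eif2b4, a subunit of a translation initiation factor (0.984), and Tbc1d16 (0.977), among 41 above 0.9. Ahnak was most like the small nucleolar RNA host genes Snhg11 (0.987) and Snhg4 (0.987) and the transglutaminase gene Tgm2 (0.985), among 49. Snhg11 was highest on fluoxetine array 3 (255.7), as Ahnak was, and lowest on vehicle array 2 (97.0). Hltf was most like 4930402H24Rik (0.997), the stress kinase gene Mapk14 (0.991) and the semaphorin gene Sema5b (0.990), among 185. S100a10, Anxa2 and Hltf, which passed the filter and so could be found, were not among the 3 genes most like any other of the 4. With only 3 genes taken out of 10830, this cannot show whether the 4 genes vary together, which was not tested.

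The receptors, channels and enzymes that p11 or Ahnak bind were described next. Of 17 listed genes 16 had a probe set and 11 were kept. In limma 0 of the 11 were called, with and without the block, and 0 had an unadjusted p under 0.05. Their median log2 difference was 0.018, beside -0.0068 over the 10830 kept genes, and its sign depended on the filter, since it was -0.013 when both groups had to reach 50 and -0.043 without a filter. It was -0.040 with a floor of 50 and -0.038 without vehicle array 3. Of the 11, 2 were higher and 1 lower in all 3 pairs, beside 10.9% and 13.1% of kept genes. Htr1b, the 5-HT1B receptor, had 176.5, 108.8 and 193.6 against 188.5, 225.9 and 141.6, a log2 difference of -0.23 ± 0.27. Its pair differences of -0.095, -1.05 and 0.45 had no common direction. Htr4, the 5-HT4 receptor, lay at the filter, which it passed through the fluoxetine-titled mean alone, with 48.8, 49.1 and 55.2 against 45.6, 60.0 and 42.3 and a log2 difference of 0.065 ± 0.17. Dlc1, a tumour suppressor that p11 can bind, had the largest absolute difference of the list, -0.29 ± 0.17, with 1205, 1076 and 893.8 against 1186, 1512 and 1193 (limma adjusted p = 1). Its groups overlapped through fluoxetine array 1. Htr1d, Scn10a, Trpv6, Plg and Dysf stayed under the filter, with group means of at most 30.1.

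Related S100 and annexin genes gave small differences as well. Of 15 other S100 genes 12 had a probe set and 5 were kept, with a median of 0.030 and 0 called. That median has no settled sign: it was -0.21 without fluoxetine array 1, -0.065 without vehicle array 3, 0.16 without vehicle array 1 and -0.036 without a filter. S100a16 had the largest difference, 0.083 ± 0.21, followed by S100b, a marker of glia, with 0.078 ± 0.13. Of 11 other annexin genes 10 had a probe set and 6 were kept, with a median of -0.071 and 0 called. That median was -0.17 without fluoxetine array 1 and 0.046 without vehicle array 3. Anxa7 had 1210, 956.1 and 1143 against 1441, 1145 and 1265, and was lower in all 3 pairs, with a log2 difference of -0.22 ± 0.15. Anxa5, the phosphatidylserine-binding annexin, had -0.18 ± 0.26. As for p11, the array numbered 2 was the lowest of each group for Anxa7.

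Genes that work with Hltf mostly had negative differences, and without the block the confidence interval of every kept gene contained 0. Hltf and its relative Shprh are ubiquitin ligases for the replication clamp PCNA, and Ube2n with Ube2v2 is the conjugating enzyme they use. Of 11 listed genes all had a probe set and 7 were kept, 6 with a negative difference, beside 52.2% of kept genes, and 4 lower in all 3 pairs, beside 13.1%. The median was -0.082. In limma 0 were called, with and without the block, and 0 had an unadjusted p under 0.05. Shprh had 479.4, 401.7 and 355.3 against 507.3, 467.2 and 424.3, a log2 difference of -0.19 ± 0.16. The fork remodelling gene Zranb3 had 139.0, 129.1 and 127.6 against 167.8, 136.3 and 145.5, a difference of -0.18 ± 0.13. Both genes overlapped between the groups through fluoxetine array 1 alone. The list median was -0.18 without fluoxetine array 1 and -0.17 without vehicle array 3.

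Genes of signals reported to raise p11 had a median of 0.14. Of 12 listed 8 had a probe set and all 8 were kept, 6 with a positive difference, beside 47.8% of kept genes, and 0 called. Of the 8, 3 were higher in all 3 pairs (Creb1, Ntrk2 and Nr3c1) and 1 was lower (Bdnf). Ifngr2, a chain of the interferon gamma receptor, had the largest difference, 0.24 ± 0.39. It came from pair 2, with 108.2, 233.7 and 122.2 against 150.2, 74.4 and 169.4. The glucocorticoid receptor gene Nr3c1 had 1789, 1903 and 1643 against 1781, 1629 and 1364, a difference of 0.17 ± 0.15. The neurotrophin gene Bdnf had -0.16 ± 0.21 and Ntrk2, which encodes its receptor, 0.15 ± 0.20. Without fluoxetine array 2 the list median was -0.021.

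**Figure D4:**
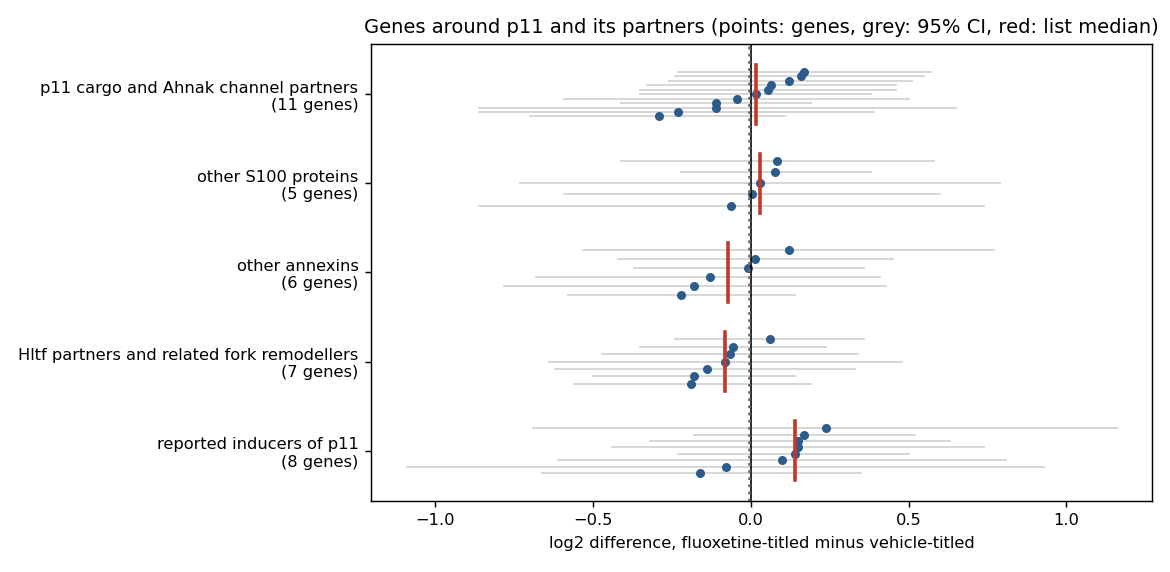
Log2 difference (horizontal axis) of each kept gene of 5 lists around p11, with its 95% confidence interval in grey, the list median in red and the median of all kept genes (-0.0068) as a dotted line. The list medians run from -0.082 for Hltf partners to 0.14 for reported inducers of p11, and every gene's interval contains 0.

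p11, annexin A2 and Ahnak are also made by cells of vessels and meninges, so markers of those cells are given beside them. Sums over a list weigh its brightest probe sets most. The summed intensity of the 4 kept mural markers lay between 1100 and 1318 on the fluoxetine-titled and between 732.8 and 1047 on the vehicle-titled arrays. How common such separate sums are was not counted, and by gene Pdgfrb, Rgs5 and Cspg4 overlapped between the groups. The median deviation of vehicle array 2 (0.11) lay above that of fluoxetine array 1 (0.10). Of the 4 genes 3 were higher in all 3 pairs, beside 10.9% of kept genes. Acta2 of smooth muscle had 538.1, 399.1 and 519.9 against 370.2, 272.4 and 268.8 (limma unadjusted p = 0.00843, adjusted p = 1). With the block its limma p was 0.00106 (adjusted 0.993). Myh11 and Tagln, mural markers under the filter, had log2 differences of -0.0017 ± 0.090 and 0.15 ± 0.17. Summed endothelial markers lay between 781.2 and 1154 against 494.3 and 1012, and those of fibroblasts between 598.5 and 722.5 against 448.7 and 843.7. No marker was listed at 0, and Pecam1, Cdh5, Flt1, Tek, Myh11, Tagln, Kcnj8, Lum, Col1a1, Col1a2 and Col3a1 had group means under 50. Of the glial lists, 10 of 10 astrocyte, 6 of 7 kept oligodendrocyte and 6 of 7 kept microglial markers had a positive difference, beside 47.8% of kept genes and with vehicle array 3 the lowest of the 6, with sums from 26853 to 34822 against 19022 to 33702 for astrocytes. The layer 5 markers had median deviations of 0.13, -0.24 and -0.093 on the fluoxetine-titled and 0.092, -0.038 and 0.068 on the vehicle-titled arrays. By pair, astrocyte markers had a median difference of 0.78 in pair 3 and of -0.066 and 0.021 in pairs 1 and 2. In pair 3 the differences of the brightest probe sets of Anxa2, Ahnak and Hltf were 0.086, 0.23 and 0.30, the highest of their 3 pairs. The other Ahnak probe sets, all under the filter, were highest in pair 1 and negative in pair 3, at -0.067, -0.17 and -0.13. Those of Anxa2 (0.072 and 0.11) and Hltf (-0.19 and -0.026) were highest in pair 3. The first p11 probe set was also at its highest there, at -0.053, and the second at its lowest, at -0.23. The part of these cells in the values of the 4 genes was not tested.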

How the data were processed

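Cortical TRAP RNA was profiled on 6 Affymetrix mouse arrays, 3 per treatment. Per the labels' protocols, RNA was extracted with Trizol-LS, treated with DNase and amplified from 15 ng. The deposited table holds linear intensities, 1 for each probe set on each array. According to the submitters' processing notes they are GCRMA values; the version is not given in the sources used here. GCRMA corrects background by probe sequence and normalizes between arrays. The 64 control probe sets were left out.

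Groups come from the titles, which the short descriptions contradict. Members, gene lists and tests were chosen with earlier results of these data known. Platform annotation named 34945 probe sets by 1 symbol, 932 had several and 9160 none here. Entrez identifiers had the same symbol in RefSeq (assembly GRCm38.p6) for all 34741 probe sets found there. Where 1 value per gene was needed, its brightest probe set was used.

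Log2 intensities were fitted with limma 3.58.1 (R 4.3.3) across all 19073 probe sets with a group mean of at least 50, with no block, two-sided, Benjamini-Hochberg adjusted. The code was tested on simulated data. The labels call the samples biological replicates. No 2 arrays held the same values: log2 differences between 2 arrays had an SD of 0.232 or more.

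The replicate numbers pair the samples. Deviations from the group means correlated at 0.738, 0.602 and 0.504 for pairs 1, 2 and 3, and between -0.592 and 0.259 for arrays of different number. The pairing rests on the titles and this check, and what a number marks is not stated. With the block the median SE was 0.11 in place of 0.18, and no call changed.

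Named genes were all 4 members, Htr1b, Htr4, the 2 genes of largest absolute difference per list, and the 3 genes most like each member over the arrays. Bdnf, Creb1, Ntrk2, Colgalt2, Acta2, Pdgfrb, Rgs5, Cspg4, Myh11, Tagln and genes named only as under the filter were added after their values were seen. Alternatives were another filter, a floor of 50, a pseudocount of 16, quantile or median scaling, a variance trend, the block, and leaving out arrays or pairs.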

Additional observations from a re-analysis of the deposited data

How the results depend on the processing

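No alternative gave a called probe set: the count at an adjusted p of 0.05 was 0 in all 17 alternatives, among them the replicate block. With 1 array of each group per replicate number, the block cannot change the difference of a probe set, only its error. The filters and the variance trend cannot change that difference either. Probe set differences kept their sign under the others that used all 6 arrays, which were the floor, the pseudocount, and quantile and median scaling. A floor of 50 gave no value where all 6 arrays lay under it. Leaving out 1 array or 1 pair turned some signs. The differences then ran from -0.17 to 0.022, -0.22 to 0.093 and -0.032 to 0.13 for the 3 p11 probe sets in order of mean, from -0.24 to -0.025, -0.072 to 0.043 and -0.071 to 0.10 for Anxa2, from -0.0025 to 0.21, -0.13 to 0.0011, -0.51 to -0.063 and -0.069 to 0.016 for Ahnak, and from -0.21 to 0.15 for the first of Hltf. For the other probe sets of Hltf they ran from -0.52 to -0.22 and from -0.082 to -0.018. Another probe set of the same gene turned the sign for p11 (0.032), Anxa2 (0.016) and Ahnak (-0.063, -0.26 and -0.032). List medians moved by less than their spread between replicates in 82 of 85 alternatives, but the block and the variance trend cannot move a median. That spread includes the differences between replicate numbers, and signs turned within it. Leave-outs ran from -0.038 to 0.081 for p11 cargo, -0.21 to 0.16 for S100 genes and -0.17 to 0.046 for annexins. The exceptions were leave-outs, which ranged from -0.18 to -0.070 for Hltf partners (-0.18 without fluoxetine array 1 and -0.17 without vehicle array 3) and from -0.021 to 0.26 for inducers of p11, the lowest without fluoxetine array 2. The number of arrays limits precision, and signal near background limits what can be read for Ahnak and the dim probe sets.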
